A study of Mus musculus with 4 samples.

Results

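The genes described here handle retinoids, the vitamin A compounds, in mouse cells. They were Stra6, Crabp1, Crabp2, Rdh10, Dhrs3, Aldh1a2, Cyp26a1, Cyp26b1 and Tgm2, 9 genes chosen by name out of 36838 names on the array. Of these names 20891 were gene symbols. Probes without a symbol were counted under their own identifier, also in the counts of all genes below. All gene probes whose transcript accession belongs to them were taken, which gave 10 probes, 2 for Tgm2 and 1 for each of the others, of 55681 gene probes. All 10 had a usable value on all 4 arrays, and none of their spots carried an outlier mark (0 marks each).

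Retinol enters cells through the membrane receptor STRA6 and is oxidized first to retinal and then to retinoic acid, which binds the retinoic acid receptors in the nucleus and switches genes on or off. Cellular binding proteins carry the retinoid between enzymes and receptors, and enzymes of the CYP26 family destroy retinoic acid. In many cell types several of these genes are themselves raised by retinoic acid, so that the pathway limits its own signal.

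The cells were NIH-3T3, an immortalized mouse embryo fibroblast line, profiled on one-colour Agilent whole-genome microarrays with Cy3-labelled RNA. There were 4 groups of 1 array each, namely untreated cells and cells collected 24 h after addition of 20 µM AR7, CA39 or CA77. AR7, CA39 and CA77 are related small molecules designed to bind retinoic acid receptor alpha and to raise chaperone-mediated autophagy, in which lysosomes take up and degrade single proteins. All cultures were grown to confluence in DMEM with serum, which is described as fetal bovine in the sample labels and as newborn calf in the methods. The compounds were dissolved in DMSO, whereas no treatment at all is named for the control, so the effects of solvent and compound cannot be told apart where the 3 treated arrays share a difference. The arrays lay on 1 slide, with the untreated array in slide row 1 and the treated arrays in slide row 2, so that an effect of the row also cannot be told apart from that of the compounds. The CA77 array was read in scan 2 and the others in scan 1.

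Levels are given as quantile-normalized log2 intensity of a probe, and a difference of 1 on this scale is 2-fold. Because each group had 1 array, no test was possible, no p-value is given, and whether a difference would recur in another culture was not measured. The error that could be measured was that between spots on the same array. Of 399 probes printed 10 times each, 265 to 302 were well above background on an array, and the median SD among their repeated spots was 0.09 to 0.12 on the log2 scale. The median of the 4 arrays' values, times the square root of 2, gives a difference between 2 arrays a typical SD of 0.16, called the spot error below. It is 1 SD and leaves out differences between cultures and between arrays, so a value beyond it can be ordinary among all genes. Levels of different probes depend on the probe and are not compared with each other. From RNA of a whole culture, less RNA per cell and fewer cells expressing a gene cannot be told apart.

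Fibroblast markers were checked first. Of 13 markers, 11 or 12 were well above background on each array. Pdgfrb was well above background on CA39 but on none of the other arrays, and Fap only on untreated. On the log2 scale the summed fibroblast level was 20.22 without treatment, 19.95 after AR7, 20.55 after CA39 and 20.00 after CA77. The summed level of 6 epithelial markers was 10.87 on CA39 and 9.39 to 9.62 on the others, with Krt8 higher on CA39 by 2.38 and Krt18 by 0.98. Of the epithelial adhesion proteins, Epcam was well above background on CA39 alone, at least 3.14-fold above the detection limit of untreated, and Cdh1 was dim on all 4, while Cldn4, a tight junction protein, was well above background on untreated and CA77 but not on AR7 or CA39. The median intensity of gene spots before normalization was 158 to 187.5, and the share of probes well above background was 69.7% without treatment, 52.9% after AR7, 52.2% after CA39 and 61.6% after CA77. The part of these differences between arrays in the results on retinoid genes was not tested.

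The largest differences of single retinoid genes from untreated were on CA39, where Crabp1 was 7.31-fold higher, Stra6 was 2.33-fold lower and Rdh10 was 1.80-fold higher. On AR7 and CA77 none of the 9 genes was past 2-fold (0 on each) and none was past 1.5-fold (0 on each). Of the 9 genes, 7 were well above background on all 4 arrays, while Aldh1a2 and Cyp26a1 were well above background on untreated only. On all 4 arrays Crabp2, Dhrs3 and Cyp26b1 stayed within a span of 0.32 on the log2 scale, and Tgm2 was lower on each treated array than on untreated.

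**Figure D1:**
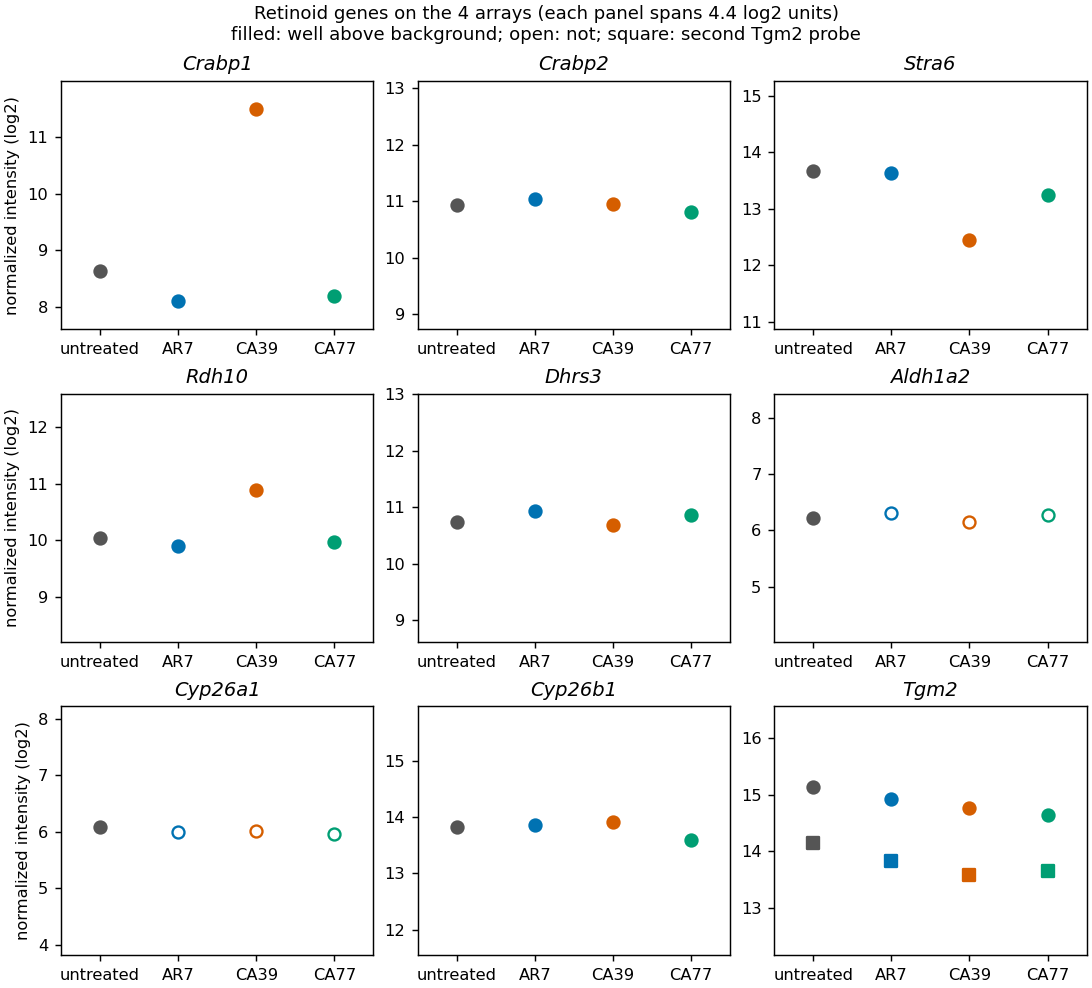
Normalized log2 intensity of each retinoid gene on the 4 arrays (horizontal axis), 1 array per group and without error bars because there are no replicates. Every panel spans the same number of log2 units. Filled symbols are well above background, open symbols are not, and squares are the other Tgm2 probe. Crabp1 and Rdh10 are highest and Stra6 is lowest on CA39, whereas the open symbols of Aldh1a2 and Cyp26a1 lie beside their untreated value.

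The first step, uptake of retinol, was represented by Stra6, the membrane receptor for retinol-binding protein. Its log2 level was 13.67 without treatment, 13.63 with AR7, 12.45 with CA39 and 13.25 with CA77, from spot intensities of 13233, 13404, 5944 and 8919.5. AR7 and untreated lay together, CA77 lay slightly below them and CA39 lowest. The differences from untreated were -0.04 for AR7, -1.22 for CA39 and -0.42 for CA77. The first is within the spot error of 0.16 and the other two are beyond it. The CA39 value was the 152nd lowest of 21393 genes well above background on both arrays. Spots within 5 rows and columns of the Stra6 spot had a median difference of -0.07 on CA39. A fault of the Stra6 spot itself would not show in this value.

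The binding proteins of retinoic acid in the cytoplasm are Crabp1, which is mostly tied to storage and breakdown of retinoic acid, and Crabp2, which delivers it to the receptors in the nucleus. The log2 level of Crabp1 was 8.63 without treatment, 8.10 with AR7, 11.50 with CA39 and 8.19 with CA77, from spot intensities of 435, 340, 3054 and 291.5. CA39 was thus far above all others, and AR7 and CA77 lay together, below untreated. The difference from untreated was 2.87 for CA39, -0.52 for AR7 and -0.44 for CA77, all beyond the spot error. CA39 ranked as the 75th highest of 21393 genes, and the 66 spots around the Crabp1 spot had a median difference of -0.06. The single probe for Crabp1 leaves no other probe to set beside it. Crabp2 had levels of 10.93 without treatment, 11.05 after AR7, 10.95 after CA39 and 10.81 after CA77, and its differences of 0.12, 0.02 and -0.12 were all within the spot error. The pair of binding proteins therefore differed on CA39, with Crabp1 7.31-fold and Crabp2 1.02-fold the untreated value. As Crabp1 had the largest difference among these genes, the 250 bases before its transcription start are shown, from RefSeq on build GRCm38.p6 (chr9:54764498-54764747, plus strand), with no capitals because none of the receptor motifs described with the CYP26 enzymes was found there.
Crabp1 upstream: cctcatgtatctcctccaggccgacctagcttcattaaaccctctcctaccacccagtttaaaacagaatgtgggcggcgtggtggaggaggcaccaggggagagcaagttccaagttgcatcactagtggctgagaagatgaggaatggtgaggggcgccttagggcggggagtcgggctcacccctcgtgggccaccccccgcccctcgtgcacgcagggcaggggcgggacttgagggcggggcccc

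Rdh10 oxidizes retinol to retinal, the limiting step of retinoic acid synthesis in the embryo, and Dhrs3 reduces retinal back to retinol. Rdh10 had log2 levels of 10.05 without treatment, 9.90 with AR7, 10.89 with CA39 and 9.97 with CA77, from spot intensities of 1092, 1056, 2036 and 930. CA39 was the high array and the other 3 lay within 0.15 of each other. The difference from untreated was 0.85 for CA39, which is short of 2-fold, and -0.15 for AR7 and -0.08 for CA77. Spots around it had a median difference of -0.05 on CA39. Dhrs3, the enzyme of the reverse reaction, had levels of 10.75 without treatment, 10.93 with AR7, 10.696 with CA39 and 10.87 with CA77. Its differences were 0.19, -0.05 and 0.13, of which the AR7 value was past the spot error by a small margin. That value was the 3217th highest of 21654 genes.

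Aldh1a2, which turns retinal into retinoic acid, was near the detection limit. Its spot intensity was 115.5 without treatment, 123 with AR7, 111 with CA39 and 106 with CA77 over a local background of 19 to 21, and its log2 level was 6.21, 6.30, 6.14 and 6.28. The scanner software marked it well above background on untreated alone, although the 4 levels were nearly equal, so no difference is given. A change of this gene that stays below the detection limit would not be seen.

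The enzymes that clear retinoic acid, Cyp26a1 and Cyp26b1, were in different positions. Cyp26a1, a textbook gene induced by retinoic acid in many cells, had spot intensities of 109 without treatment, 105 with AR7, 103 with CA39 and 93 with CA77, with log2 levels of 6.08, 5.997, 6.02 and 5.97. It was well above background on untreated alone, and the treated arrays gave no measured value for a difference. Cyp26b1 was bright, with levels of 13.82 without treatment, 13.86 with AR7, 13.92 with CA39 and 13.60 with CA77. Its differences were 0.05, 0.10 and -0.22, the last of them beyond the spot error and none near 2-fold. The CA77 value was the 4715th lowest of 24364 genes.

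Promoter windows of 300 bases, 250 before and 50 after a RefSeq transcription start on build GRCm38.p6, were searched for the elements that retinoic acid receptors bind. RefSeq windows were at hand for 6 of the 9 genes, 11 windows in all. Crabp2, Rdh10 and Tgm2 had no entry. The element was written as any 2 of the hexamer AGGTCA, the variant GGGTCA, the variant AGTTCA or the variant GGTTCA in the same direction, on either strand, with 5, 2 or 1 bases between them. Of the 11 windows 1 held a match, at Cyp26a1, with a spacer of 5 bases on the opposite strand to the gene, from 32 to 16 bases before the start. The same spacer was found in 32 of 32851 windows of all genes (0.0974%), spacer 2 in 88 (0.268%) and spacer 1 in 73 (0.222%). The 30 bases around the match are shown because Cyp26a1 was the one gene whose window held it, with the matched letters in capitals (chr19:37697770-37697799, plus strand, GRCm38.p6).
Cyp26a1 match: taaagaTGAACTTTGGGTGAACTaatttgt

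A match of letters is a description and shows no binding. The gene whose window held it was not well above background on any treated array, and Crabp1 and Stra6, the pair past 2-fold on CA39, had no match in their 1 and 4 windows.

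Tgm2 encodes transglutaminase 2, an enzyme that crosslinks proteins and is a common target of retinoic acid in many cells. Its brighter probe had log2 levels of 15.15 without treatment, 14.94 after AR7, 14.77 after CA39 and 14.65 after CA77, and the other probe had 14.14, 13.83, 13.59 and 13.65. With both probes untreated was the highest array. The differences from untreated of the brighter probe were -0.21, -0.37 and -0.49 for AR7, CA39 and CA77, and those of the other probe were -0.31, -0.56 and -0.49. The 6 differences were all beyond the spot error and all below 2-fold. Among the genes measured on both arrays, the brighter probe ranked 3184th lowest of 21654 on AR7, 2726th of 21393 on CA39 and 1052nd of 24364 on CA77. The order of CA39 and CA77 changed with the probe, and the 3 treated arrays share the same untreated array.

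**Figure D2:**
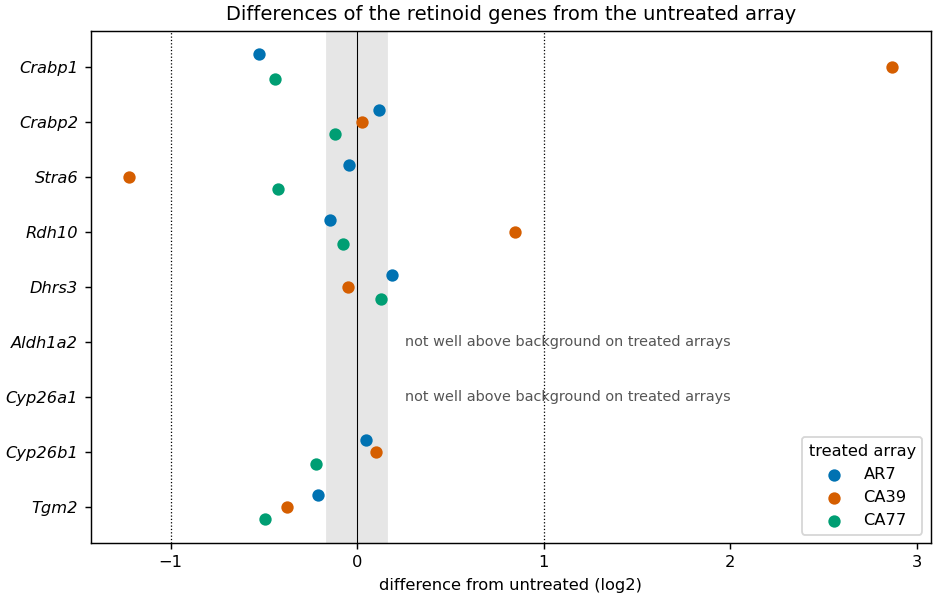
Difference of each retinoid gene from the untreated array on the log2 scale (horizontal axis), for AR7, CA39 and CA77, with the brighter probe of Tgm2. The grey band is the spot error of a difference and the dotted lines mark 2-fold. Crabp1 at 2.87 and Stra6 at -1.22 on CA39 are outside the dotted lines, and no difference is drawn for Aldh1a2 and Cyp26a1.

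Counts over the 9 genes were read against the share of all genes past the same limit. These genes and the lists below were chosen with earlier results of the data known, so the counts cannot show an excess over that share. On AR7 0 of the 9 genes were past 2-fold, beside 2.19% of 27855 genes compared, and 0 were past 1.5-fold, beside 4.71%. On CA39 2 of 9 were past 2-fold, 1 higher and 1 lower, beside 4.85% of 27894 genes, and 3 of 9 were past 1.5-fold, beside 10.9%. On CA77 0 were past 2-fold, beside 2.47% of 28126 genes, and 0 were past 1.5-fold, beside 6.47%. The genes were few, and 2 of them gave no measured difference, so a single gene moves these counts. The median difference of the 7 measured genes was -0.04 on AR7, 0.02 on CA39 and -0.22 on CA77, and that of all measured genes was -0.01, -0.03 and -0.02. The genes beyond 2-fold on CA39 thus lay on either side of a group whose middle stayed at untreated.

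**Figure D3:**
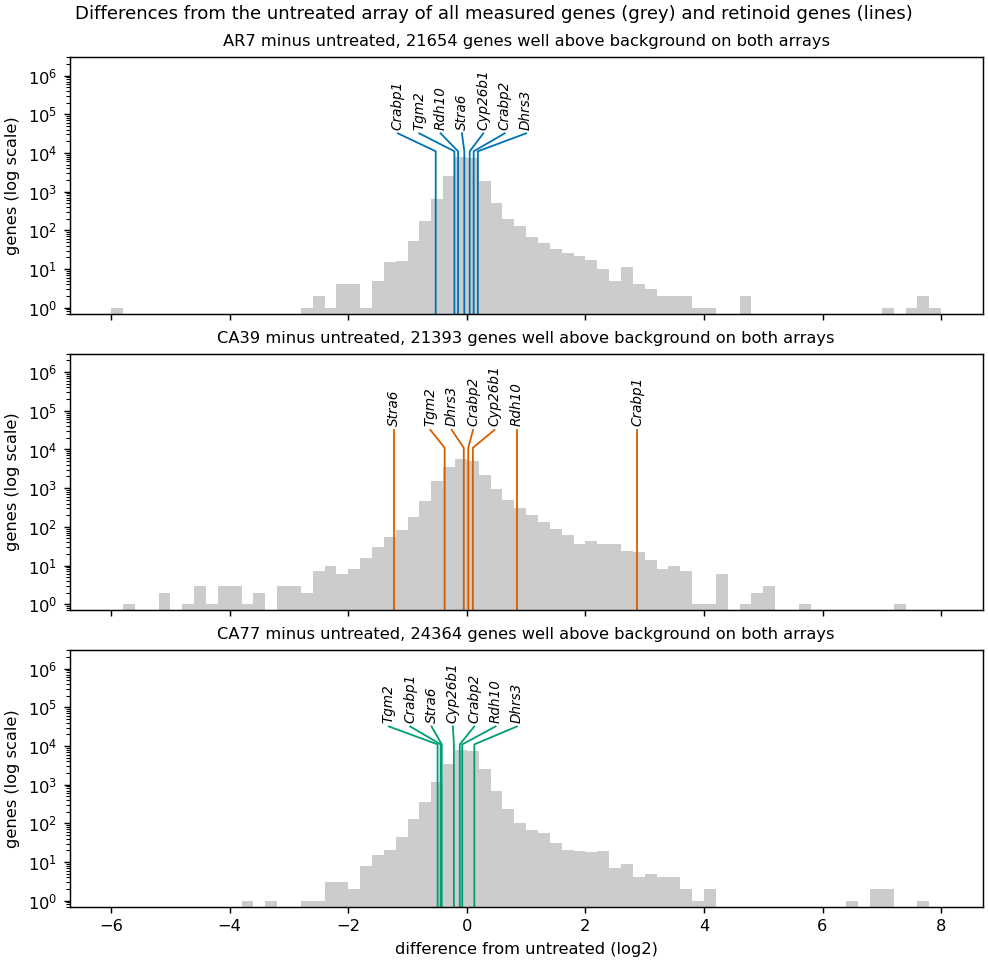
Histograms of the log2 difference from untreated of all genes well above background on both arrays (grey, horizontal axis in log2 units, vertical axis the number of genes on a log scale), with a labelled line at each of the 7 measured retinoid genes. On AR7 and CA77 all lines lie between -0.52 and 0.19, and on CA39 Crabp1 lies in the high tail and Stra6 in the low tail.

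The 3 compounds were also set against each other at the same dose and time, again 1 array against 1 array and without a test. Between CA39 and AR7, 2 of the 7 measured genes were past 2-fold, beside 6.15% of 23075 genes compared. Crabp1 was 10.5-fold higher with CA39 than with AR7, a log2 difference of 3.39, the 27th highest of 20627 genes. Stra6 was lower with CA39 by a log2 difference of -1.18. Rdh10 was 1.99-fold higher, on the edge of the limit. Between CA39 and CA77, 1 of the 7 was past 2-fold, beside 6.22% of 25457 genes. Crabp1 was 9.93-fold higher with CA39, a log2 difference of 3.31, while Rdh10 at 0.93 and Stra6 at -0.80 were short of 2-fold. Between CA77 and AR7, 0 of the 7 were past 2-fold, beside 2.57% of 25344 genes, and the differences ran from -0.38 for Stra6 to 0.08 for Crabp1. With 1 array each, the interval of a difference between compounds could not be estimated, and these values do not show that AR7 and CA77 act alike.

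Genes with the most similar pattern were sought among 13015 genes with a symbol, by the Euclidean distance between their 3 differences from untreated. Nearest to Crabp1 were Nacc2 at a distance of 0.09, Bst2 at 0.13 and Spon2 at 0.25. Nacc2, for example, differed by -0.48 on AR7, 2.89 on CA39 and -0.37 on CA77. Nearest to Stra6 were Pdgfrl at 0.05, 1700022A21Rik at 0.22 and Gdpd5 at 0.24. Pdgfrl, which encodes a protein similar to a growth factor receptor, differed by -0.06, -1.23 and -0.38. The likeness rests on 3 values that share 1 untreated array.

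Other genes of retinoid transport and metabolism numbered 45 in the list with 44 on the array. On AR7 0 of the 33 compared were past 2-fold, beside 2.19% of all genes, on CA39 it was 4 of 34, beside 4.85%, and on CA77 1 of 35, beside 2.47%. The CA77 count depended on the processing. It was 4 with the quantile-normalized processed signal, where all genes past 2-fold rose from 696 to 1399. On AR7 the list's largest differences were -0.75 for Fabp4, a fatty acid binding protein, 0.64 for Adh7, an alcohol dehydrogenase that oxidizes retinol, and -0.58 for Rdh11, a retinal reductase. On CA39 2 were higher and 2 were lower. Aldh1a1, which like Aldh1a2 makes retinoic acid from retinal, had log2 levels of 15.33 without treatment, 14.94 with AR7, 13.32 with CA39 and 14.75 with CA77. It was lowest on CA39, by 2.01 on the log2 scale or 4.02-fold, and the AR7 and CA77 arrays lay between CA39 and untreated. Fabp4 was 3.01-fold lower, with levels of 11.25, 10.49, 9.66 and 10.82. Fabp4 is also a marker of fat cells, of which Adipoq was dim on all 4 arrays. Plin1 was well above background on untreated and CA77 but not on AR7 or CA39. Its levels were nearly equal, at 6.38, 6.37, 6.22 and 6.44 in the order untreated, AR7, CA39 and CA77, and near the detection limit. On the log2 scale the summed level of the 3 fat markers was 11.31, 10.61, 9.83 and 10.93 in the same order. This sum is almost Fabp4 alone and so tells nothing apart from it. A part of fat cells in the Fabp4 values was not tested.

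Cyp1b1, a cytochrome P450 that can make retinoic acid from retinol and also oxidizes steroids and xenobiotics, was the one gene of the list past 2-fold on both CA39 and CA77. Its levels were 12.68 without treatment, 12.68 with AR7, 14.03 with CA39 and 13.83 with CA77, which is 2.54-fold higher on CA39 and 2.21-fold higher on CA77. Untreated and AR7 formed the low pair and CA39 and CA77 the high pair. Rbp4, the retinol carrier of blood that STRA6 recognizes, was well above background on CA39 alone, at a log2 level of 8.48, and was at least 6.08-fold higher there than the detection limit of the untreated array, taken as the 1st percentile of signals well above background. This bound, 2.61 on the log2 scale, was 1.91 with a background offset of 50. The median over the measured genes of the list was -0.02 on AR7, 0.04 on CA39 and -0.13 on CA77.

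Known retinoic acid targets outside the pathway were counted from a list of 24 genes. On AR7 0 of the 17 compared were past 2-fold, beside 2.19% of all genes, on CA39 3 of 17, beside 4.85%, and on CA77 1 of 18, beside 2.47%. On AR7 the largest differences were -0.46 for Egr1, an early response transcription factor, -0.39 for Btg2 and 0.24 for Hoxb4. On CA39 2 were higher, namely Pdgfra by 1.19 and Cdx1 by 1.09, and 1 was lower, Egr1 by a difference of -1.01. The calls of Cdx1 and Egr1 are near the limit: Cdx1 was at 0.91 with a background offset of 50, and Egr1 was at -0.88 after a correction for position on the array and at -0.998 with the quantile-normalized processed signal. Pdgfra, a growth factor receptor, is also one of the fibroblast markers, of which 10 of the 11 measured were higher on CA39. On AR7 11 of the 11 measured were lower than untreated, and on CA77 10 of 11.

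Rarb, the receptor gene often used as a readout of retinoic acid, was the target past 2-fold on CA77. One of its 2 probes had a log2 level of 9.40 on CA77 and was not well above background on untreated, AR7 or CA39, where it read 5.01, 4.96 and 4.75, so that CA77 was at least 11.5-fold above the detection limit of untreated. This bound, 3.52 on the log2 scale, was 2.74 with a background offset of 50. On no array was the other Rarb probe well above background, and it read 5.39 on CA77. The probes disagree, and with 1 spot each the level of Rarb on CA77 is not settled by them. The list's median over measured genes was -0.04 on AR7, -0.05 on CA39 and -0.01 on CA77.

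**Figure D4:**
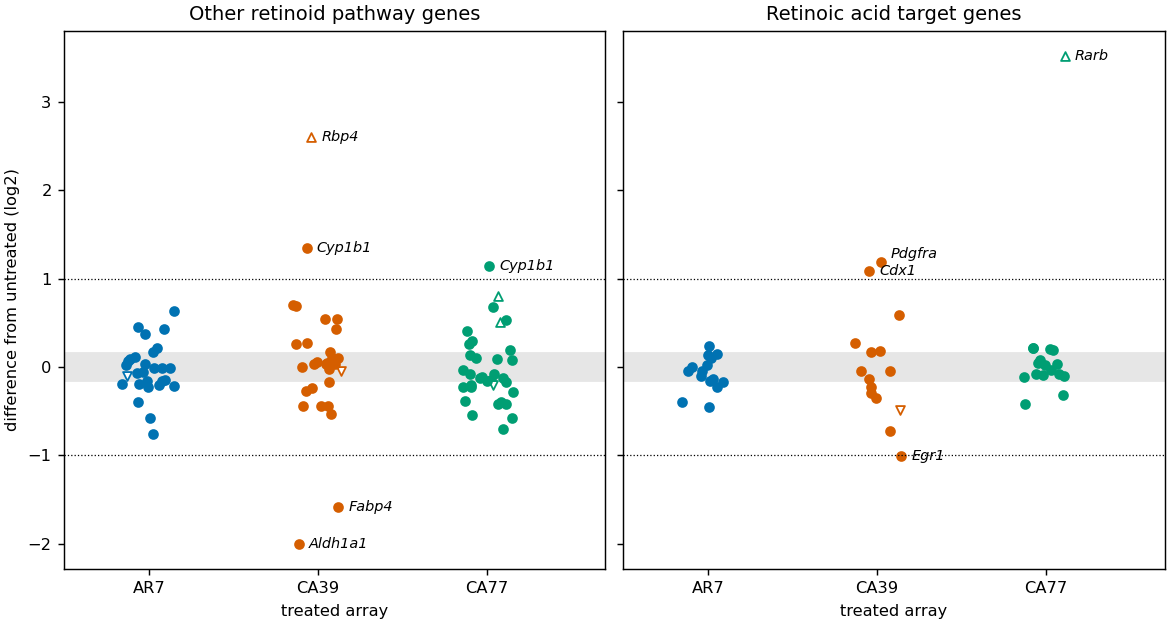
Difference from untreated on the log2 scale (vertical axis) of the other retinoid pathway genes (left) and the retinoic acid targets (right) on each treated array, 1 symbol per gene. Open triangles are bounds, where 1 of the arrays was not well above background. The grey band is the spot error and the dotted lines mark 2-fold. On AR7 no symbol is outside the dotted lines, and the labelled genes are those past 2-fold on CA39 and CA77.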

How the data were processed

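RNA of 4 NIH-3T3 cultures, 1 per group as given by the sample labels, was measured on one-colour arrays. The deposited scanner files hold, per the file headers, spot intensity and local background intensity made by the authors with Feature Extraction 10.7.3.1. The deposited series table equals the background-subtracted intensity at all 62976 spots of each array, and the study's methods name RMA. The other deposited columns used were quality marks and accessions.

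Following RMA where single-probe arrays allow, the median intensity of all spots was background corrected (normexp, limma 3.58.1, R 4.3.3). Control spots were then left out, and the remaining 59305 gene spots of each array were quantile normalized before taking log2. Spots marked as outliers (142 to 328 per array) were left out, and spots of a probe were averaged. No gene spot was saturated (0 on each array). Detection required that the scanner software marked over 50% of a probe's spots as well above background. A dim value was raised to the 1st percentile of detected signal of its array (5.88 to 6.87 in log2). Where the array with the higher value was itself dim, the difference was set to 0 in counts and not printed. Accessions were named through RefSeq GRCm38.p6 tables (27506 probes, 20891 symbols), and the brightest probe stood for a gene. The array design cites an earlier build, so coordinates are given for the printed RefSeq promoter sequences on GRCm38.p6 and not for probes.

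Past 2-fold means a log2 difference of 1 or more in either direction with detection on 1 or both arrays. With 1 array per group no test was run, and the number of arrays limits the precision. The spot error is the median over the 4 arrays of the median SD of repeated spots, times the square root of 2. The processing was tested on simulated data. Alternatives were other background corrections, normalizations, floors, filters, probe rules and thresholds. The genes and lists were chosen with earlier results of these data known. Named were all 9 genes, every list gene past 2-fold (or the 3 largest where none was), and the 3 genes nearest to each of the 9 past 2-fold. Adding to this rule, the markers were named after their values were seen.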

Additional observations from a re-analysis of the deposited data

How the results depend on the processing

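All 189 recomputed differences of the retinoid genes from untreated, over 9 alternatives of background correction, scaling, floor, filter, position and probe rule, moved by less than the spot error. The sign turned in 6 of them, all of values within the spot error of 0 in the report: Crabp2 on CA39 (0.02, lowest -0.04), Cyp26b1 on CA39 (0.10, lowest -0.02), Dhrs3 on CA39 (-0.05, highest 0.05) and Rdh10 on CA77 (-0.08, highest 0.02). Crabp1 on CA39 ran from 2.72 to 3.01, Stra6 on CA39 from -1.26 to -1.15 and Rdh10 on CA39 from 0.82 to 0.95. The counts of retinoid genes past 2-fold against untreated were the same in these 9. Between CA39 and AR7, Crabp1 ran from 3.18 to 3.63 and Rdh10 from 0.96 to 1.04, so that Rdh10 passed 2-fold with the quantile-normalized processed signal and with the deposited series table, and Tgm2 went from -0.16 to 0.02 with the position correction. Counts of pathway genes past 2-fold on CA77, 1 in the report, became 2 with 75th percentile scaling, 4 with quantile-normalized processed signal, 2 with a floor at the lowest detected signal and 2 with no floor or filter. The genes added were Aldh1a3 in each case and, with the processed signal, Rbp2 and Rlbp1. All genes past 2-fold on CA77 rose with them, from 696 to 1253, 1399, 905 and 1297 in the same order. On AR7 all genes past 2-fold went from 609 to 919 with the processed signal and 1192 with no floor or filter, and on CA39 from 1354 to 2041 with no floor or filter. With no floor or filter 2 targets were past 2-fold on CA77 in place of 1, Ret being added, and 4 on CA39 in place of 3, Foxa1 being added. With a 1.5-fold threshold the pathway count was 2 on AR7 (Adh7 and Fabp4, 0 at 2-fold) and 4 on CA77, the target count on CA39 was 5 (3 at 2-fold), and 3 retinoid genes were past it on CA39. Egr1 on CA39 ran from -1.08 to -0.88 and Cdx1 from 0.91 to 1.35, so both crossed 2-fold. The bound of Rbp4 on CA39 ran from 1.91 to 3.95 and that of Rarb on CA77 from 2.74 to 5.16. The 75th percentile scaling moved the median of all genes on CA39 from -0.03 to -0.11. The share of higher genes among those past 2-fold went from 82.3% to 65.2% on AR7 with the lowest floor, and from 77.9% to 65.0% on CA77 with 75th percentile scaling. The causes were not tested. Signal over background limits Aldh1a2 and Cyp26a1. No paired analysis was possible because each group has 1 array.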
